A study of Rattus norvegicus with 6 samples.

Results

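The core circadian clock genes Per1, Per2, Nr1d1, Dbp, Arntl and Clock were examined in the superficial superior colliculus, the midbrain layers that receive retinal input, of Sprague Dawley rats at postnatal day 20. They are 6 of the 26402 Ensembl gene IDs with FPKM values (fragments relative to the length of the transcript and the total of the library), chosen by ID as textbook clock genes, and all 6 had a mean of at least 1 FPKM. The deposited tables give IDs without symbols, and no annotation used here pairs them, so the symbols rest on the list by which the IDs were chosen. In the closed group glue kept the eyelids shut between postnatal days 14 and 20, and in the open group the eyes were open during that period. Each group held 3 libraries of polyadenylated RNA, 1 per labelled batch (A, B or C). The labels do not say what a batch shares, when in the day the tissue was collected or how many animals went into a library, so p-values reflect only how these libraries vary, which may be technical.

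In the clock of most mammalian cells, the proteins of Clock and Arntl (also called Bmal1) form a pair that binds E-box sequences and turns on Per1, Per2, Nr1d1 and Dbp. The PER proteins then repress that pair, and NR1D1, also known as REV-ERB alpha, represses Arntl through ROR elements. DBP passes the rhythm on to D-box sequences of other genes. In a running clock the Nr1d1, Dbp and Per transcripts therefore peak in one part of the day and Arntl in about the opposite part, while Clock usually changes less. Light reaching the retina sets the central clock in the hypothalamus.

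Promoter sequences of 3 of the genes were picked for display because each holds letters that match a different element of the loop. RefSeq promoters on build GRCr8 matched all 6 genes by symbol, Arntl as Bmal1, and the 250 bases before the start are given 5′ to 3′ on the gene's strand. Capitals mark matches on either strand to the E-box CACGTG, the related E-box CACGTT, the D-box TTATGTAA, the nuclear receptor core motif AGGTCA or the ROR element letters AAAGTAGGT.
Per2, chr9:99496994-99497243, minus strand: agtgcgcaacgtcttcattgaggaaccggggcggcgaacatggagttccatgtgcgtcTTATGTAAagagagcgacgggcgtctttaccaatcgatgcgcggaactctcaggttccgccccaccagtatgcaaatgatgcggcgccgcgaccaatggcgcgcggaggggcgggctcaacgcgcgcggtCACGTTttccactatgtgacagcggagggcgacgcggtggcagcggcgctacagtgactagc
Nr1d1, the second RefSeq start, chr10:84229455-84229704, minus strand: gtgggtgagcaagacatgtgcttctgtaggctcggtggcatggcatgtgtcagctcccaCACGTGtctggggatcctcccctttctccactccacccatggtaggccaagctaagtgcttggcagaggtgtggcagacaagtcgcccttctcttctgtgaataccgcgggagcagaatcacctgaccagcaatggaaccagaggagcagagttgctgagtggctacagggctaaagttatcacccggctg
Arntl, chr1:176766078-176766327, plus strand: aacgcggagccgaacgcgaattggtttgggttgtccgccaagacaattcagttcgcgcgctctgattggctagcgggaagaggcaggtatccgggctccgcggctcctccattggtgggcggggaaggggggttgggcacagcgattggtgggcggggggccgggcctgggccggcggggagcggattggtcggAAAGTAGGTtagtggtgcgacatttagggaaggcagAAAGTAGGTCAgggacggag

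The Per2 sequence held a D-box beginning 192 bases and a CACGTT beginning 62 bases before the start. The second start of Nr1d1 had a CACGTG at 191 bases, and its first start a CACGTT on the opposite strand at 174 bases. The Arntl sequence held AAAGTAGGT at 56 and at 20 bases, and the latter overlapped an AGGTCA at 15 bases. The AAAGTAGGT letters were chosen after the sequence had been seen. Over all 33469 promoters of the same length, 5.59% held CACGTG, 4.07% CACGTT, 0.828% TTATGTAA, 14.1% AGGTCA and 0.176% AAAGTAGGT. None of these letters, nor the cAMP response core motif TGACG found in 18.2% of promoters, occurred in the windows of Per1, Dbp or Clock. A match is a description of letters and not of binding.

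All 6 genes were detected in all 6 libraries, and per transcript length they spanned about an order of magnitude. Dbp (ENSRNOG00000021027) was the most abundant, at 45.3 ± 4.87 FPKM (SD, n = 6), a level at or above that of 91.0% of the 12351 IDs tested. Nr1d1 (ENSRNOG00000009329) followed at 30.8 ± 6.45 FPKM and was below Dbp in 6 of 6 libraries. Arntl (ENSRNOG00000014448) stood at 8.10 ± 1.15 FPKM and Per1 (ENSRNOG00000007387) at 7.30 ± 1.62 FPKM. The lowest were Clock (ENSRNOG00000002175), at 4.04 ± 1.07 FPKM, and Per2 (ENSRNOG00000020254), at 3.32 ± 0.430 FPKM (SD, n = 6 each). Arntl and Per1 did not differ beyond their spread, with Arntl above Per1 in 5 of 6 libraries and a ratio of 0.848 to 1.51. Per1 was above Clock in 5 of 6 libraries, and Clock was above Per2 in 4 of 6. In bulk tissue, more cells of a type and more transcript per cell cannot be told apart.

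**Figure D1:**
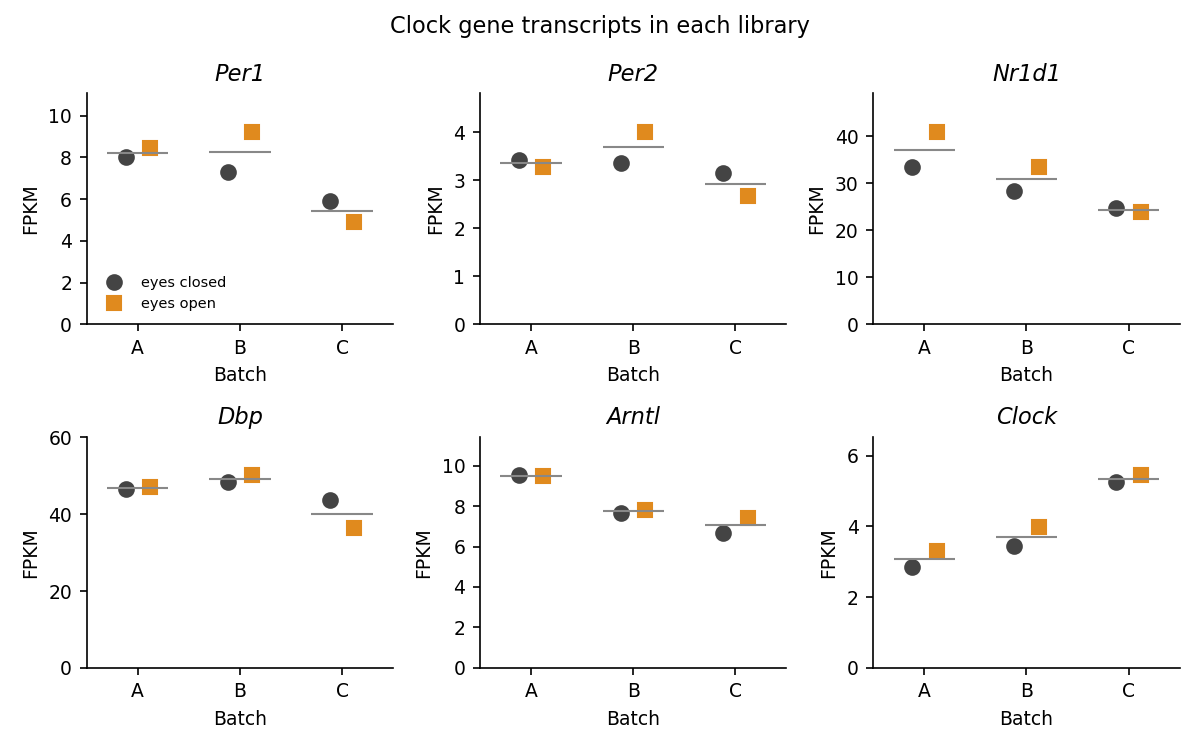
FPKM of each clock gene (y axis, linear, from 0) in batches A, B and C (x axis), with circles for closed eyes, squares for open eyes and grey lines for the mean of the 2 libraries of a batch. Clock is highest in both batch C libraries (5.24 and 5.44 FPKM), while the other 5 genes are lowest there.

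The first comparison asked whether eyelid closure changed clock gene transcripts, and none of the 6 genes changed detectably. Among the activators, Arntl stood at 9.51, 7.67 and 6.68 FPKM in closed and at 9.48, 7.81 and 7.41 FPKM in open eyes of batches A, B and C. The closed and open values of Arntl overlapped widely, and in batch A they were nearly equal. Clock stood at 2.85, 3.44 and 5.24 FPKM in closed and at 3.31, 3.97 and 5.44 FPKM in open eyes. Clock was the only gene of the 6 with 1 direction in all 3 batches, lower in closed eyes each time, as were 19.5% of all IDs tested, while 8.4% were higher each time. The closed and open ranges still overlapped for Clock and for the other 5 genes, where 3.02% of IDs had no overlap.

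The repressors Per1 and Per2 had no common direction across batches. Per1 was at 7.99, 7.29 and 5.92 FPKM in closed and at 8.46, 9.22 and 4.90 FPKM in open eyes of batches A, B and C. It was thus lower with closed eyes in batches A and B and higher in batch C. Per2 was at 3.42, 3.37 and 3.15 FPKM in closed and at 3.29, 4.01 and 2.68 FPKM in open eyes. Its open libraries spread over a wider range than its closed ones, with 3.33 ± 0.665 FPKM in open and 3.32 ± 0.144 FPKM in closed eyes (SD, n = 3 each). Whether that spread differs between the groups was not tested.

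Nr1d1, the repressor of Arntl, was at 33.4, 28.3 and 24.6 FPKM in closed and at 40.9, 33.4 and 23.9 FPKM in open eyes. It was lower with closed eyes in batches A and B and nearly equal in batch C. Nr1d1 lies on the strand opposite its neighbour Thra and overlaps it, and the sources used here do not state whether strand was counted. Whether reads of the overlap were kept apart is thus not known. Dbp, the output factor, was at 46.5, 48.4 and 43.6 FPKM in closed and at 47.0, 50.1 and 36.4 FPKM in open eyes. In batches A and B the Dbp libraries lay close together, and the lowest value was that of open eyes in batch C.

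In limma on log2(FPKM + 0.5), 0 of the 6 genes passed an adjusted p under 0.05 between closed and open eyes, as did 0% of all 12351 IDs, of which 0.542% had an unadjusted p under 0.05. The differences, closed minus open on that scale, were -0.16 for Nr1d1 (SE 0.21), -0.14 for Clock (SE 0.23), -0.05 for Arntl (SE 0.16), -0.05 for Per1 (SE 0.23), 0.01 for Per2 (SE 0.15) and 0.06 for Dbp (SE 0.15), each with an adjusted p of 0.99997. With the batch as a replicate block the smallest unadjusted p was that of Nr1d1, at 0.0665 (SE 0.0757, limma adjusted p = 0.794), where 6.32% of all IDs had an unadjusted p under 0.05 and 0.0081% were called. The adjusted p of Nr1d1 ranged from 0.794 to 1 over 19 alternative settings. The median size of the difference was 0.0583 for the 6 genes and 0.0661 for all IDs.

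The intervals state how large a difference the libraries leave room for. With the block, the 95% interval of the closed over open ratio ran from 0.794 to 1.01 for Nr1d1, from 0.799 to 1.03 for Clock, from 0.863 to 1.08 for Arntl, from 0.816 to 1.15 for Per1, from 0.857 to 1.18 for Per2 and from 0.931 to 1.17 for Dbp. Without it, the widest were those of Clock, from 0.624 to 1.32, and of Per1, from 0.669 to 1.398. A p above the threshold does not show equal levels, and these bounds, which are per gene and not adjusted, are what the data give.

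**Figure D2:**
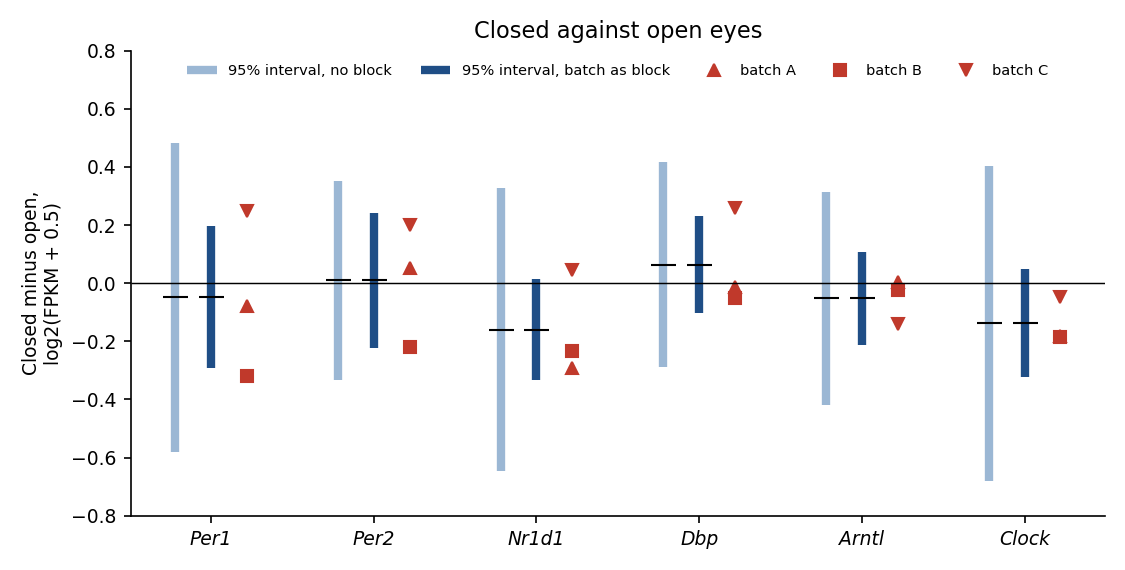
Closed minus open difference in log2(FPKM + 0.5) (y axis) for each clock gene (x axis). Bars are 95% intervals of limma without and with the batch as a block, short lines the estimate, and red marks the difference in each batch; every interval spans 0, and Per1 runs from -0.32 in batch B to 0.25 in batch C.

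The authors' deposited table, made with DESeq2 per its own label column, also called none of the 6 genes, each with an adjusted p of 0.99992, where 0.0344% of 20347 IDs were called. In the authors' deposited table the log2 fold, turned to closed over open, was -0.13 for Nr1d1 with an unadjusted p of 0.0768, and -0.045 for Clock, -0.040 for Per1, -0.035 for Dbp, -0.0026 for Arntl and 0.019 for Per2. Dbp thus had opposite signs in FPKM and in the authors' deposited table, near 0 in both. The authors' deposited table gives mean normalized counts from 345 for Clock to 3629 for Dbp, so none of these genes rests on few reads.

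The second comparison asked whether the batches differed in clock gene transcripts, and in which direction for each gene. In batch C, both libraries lay outside all 4 libraries of batches A and B for all 6 genes. Clock was above them and the other 5 genes were below them. This must be read against the whole table, in which 51.7% of IDs were lower in batch C without overlap and 7.17% were higher. The direction of Clock was thus the rarer one. After scaling all libraries to a common median, batch C still lay outside for 3 genes, Clock above and Per1 and Nr1d1 below, with 22.1% of IDs above and 24.6% below.

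Clock, which encodes the activating partner of BMAL1, varied most between batches. Its batch means were 3.08, 3.71 and 5.34 FPKM in A, B and C, without overlap between any of the batches, an ordering found in 1.81% of IDs as deposited, in 5.25% after median scaling and in 5.42% after quantile scaling, and held by Clock on each scale. In limma with eye condition as covariate, Clock was higher in batch C than in A by 0.71 on the log2(FPKM + 0.5) scale, a 1.63-fold difference of FPKM + 0.5 (SE 0.10, adjusted p = 0.00151), and than in B by 0.48 (SE 0.10, adjusted p = 0.00714). In FPKM, the Clock batch means differed 1.73-fold between C and A. Among all IDs 5.15% were called higher in C than in A and 4.57% higher in C than in B, and the median of all IDs moved the other way, by -0.21 and -0.20. With 1 library left out in turn, the difference from A passed each time, while that from B missed the threshold without the closed library of batch B (0.44, limma adjusted p = 0.0674) or of batch C (0.41, limma adjusted p = 0.0511). After median scaling, the Clock difference between C and A was 0.90 (limma SE 0.086, adjusted p = 0.00314).

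Arntl, the partner of Clock, followed the reverse order. Its batch means were 9.50, 7.74 and 7.05 FPKM in A, B and C, again without overlap between any of the batches, an ordering found in 14.1% of IDs as deposited. Arntl was lower in batch C than in A by a log2 difference of -0.41 (limma SE 0.086, adjusted p = 0.00639), a call made for 40.5% of IDs. It missed the threshold without the closed (-0.36, limma adjusted p = 0.0630) or the open library of batch A (-0.45, limma adjusted p = 0.0516). The difference of B from A, -0.28, had a limma adjusted p of 0.107, and none of the 6 genes passed between B and A, where 1.64% of IDs were called higher and 1.72% lower. After median scaling the C minus A difference was -0.21 with a limma adjusted p of 0.112, and the C minus B difference turned from -0.13 to 0.063, so for Arntl only the higher level of batch A stood without overlap on that scale.

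Nr1d1 was also highest in batch A and lowest in batch C, with batch means of 37.1, 30.9 and 24.3 FPKM. Its closed library of batch A and its open library of batch B were nearly equal, so A and B overlapped as deposited. After median scaling Nr1d1 was ordered A above B above C without overlap, as were 7.25% of IDs, but not after quantile scaling. Nr1d1 was lower in C than in A by -0.60 (limma SE 0.093, adjusted p = 0.00204), a 1.51-fold difference, and than in B by -0.34 (limma adjusted p = 0.0204), a call made for 37.3% of IDs. The difference from A passed with each library left out in turn. That from B was -0.18 without the open library of batch C (limma adjusted p = 0.130), and it also missed the threshold without the open (-0.28, limma adjusted p = 0.164) or the closed library of batch B (-0.39, limma adjusted p = 0.0705). With median scaling the difference of C from A was -0.40 and still passed (limma adjusted p = 0.0139), while that of C from B was -0.15 and did not (limma adjusted p = 0.205). On that scale 14.5% of IDs were called lower in C than in A.

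Per1 differed between batch C and each of the others, and its A and B means were close. Its batch means were 8.23, 8.25 and 5.41 FPKM, and C was lower than A by -0.57 (limma SE 0.13, adjusted p = 0.00986) and than B by -0.56 (limma adjusted p = 0.0114). Among all IDs, 40.5% were called lower in C than in A and 37.3% lower in C than in B. With 1 library left out the Per1 differences ran from -0.79 to -0.34 for either contrast. The difference from A missed the threshold without the closed (limma adjusted p = 0.0506) or open library of batch A (0.0832) or the open library of batch C (0.103), and that from B without the open library of batch B (0.112) or of batch C (0.112). After median scaling both differences were -0.37 and missed the threshold (limma adjusted p = 0.0590 and 0.0622). Per2, at batch means of 3.35, 3.69 and 2.92 FPKM, passed in no contrast, and Dbp, at 46.8, 49.2 and 40.0 FPKM, passed only between C and B (-0.30, limma adjusted p = 0.0282). That Dbp call was lost without the open library of batch C (-0.16, limma adjusted p = 0.166), the open library of batch B (-0.21, limma adjusted p = 0.259) or the closed library of batch B (-0.39, limma adjusted p = 0.0649), and without the closed library of batch C Dbp also passed between C and A (-0.37, limma adjusted p = 0.0198). After median scaling the batch differences of Per2 and Dbp ran from -0.11 to 0.12, with limma adjusted p from 0.317 to 0.924.

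**Figure D3:**
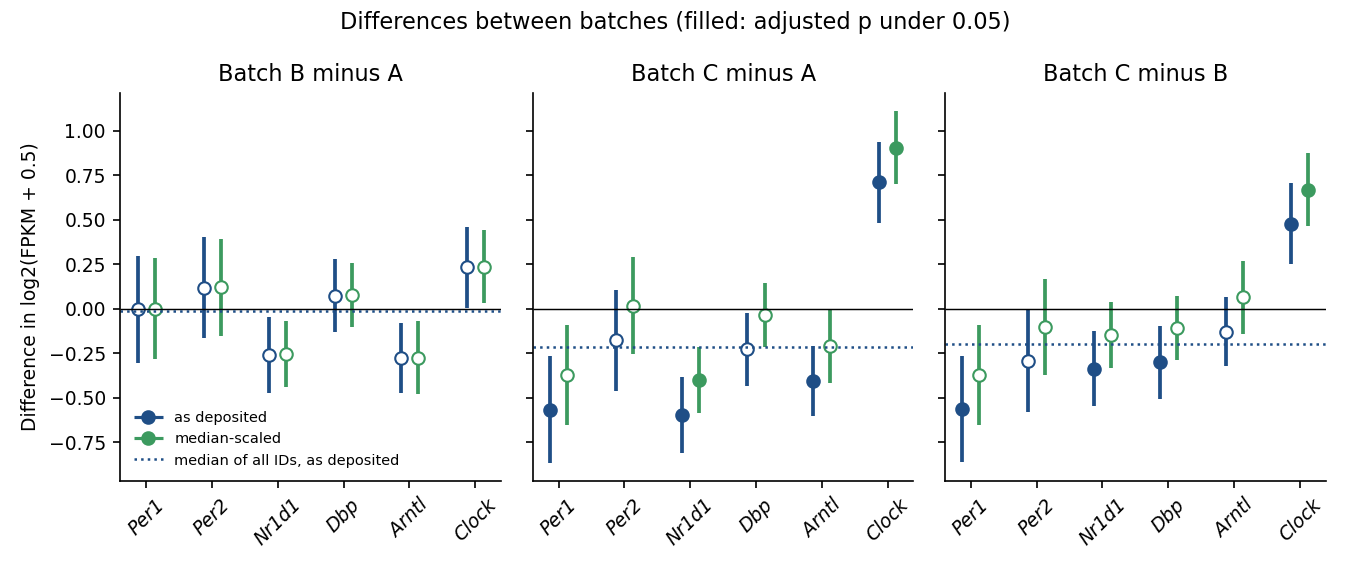
Differences between batches in log2(FPKM + 0.5) (y axis) for each clock gene (x axis), as deposited in blue and after median scaling in green, with 95% limma intervals, filled points for an adjusted p under 0.05 and a dotted line at the median of all IDs. Clock is higher in batch C on both scales (0.71 and 0.90 over A). As deposited, the median ID stands at -0.21 for C minus A, near Per2 (-0.18) and Dbp (-0.23). Arntl (-0.41), Per1 (-0.57) and Nr1d1 (-0.60) lie further below 0.

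Tested over the 3 batches together, 5 of the 6 genes differed (Clock, Nr1d1, Per1, Arntl and Dbp, limma adjusted p from 0.00280 to 0.0471), where 49.7% of all IDs did. With median scaling 2 genes passed, Nr1d1 (limma adjusted p = 0.0239) and Clock (limma adjusted p = 0.00515), where 30.3% of IDs did. Nr1d1 passed in all 14 alternative settings, with quantile scaling at a limma adjusted p of 0.0494, where 28.2% of IDs passed. Clock passed in all 13 settings that tested it. Per1 passed in 10 of 14 settings, Arntl in 9 of 14, Dbp in 5 of 14 and Per2 in 0 of 13. Without the open library of batch C, again only Nr1d1 and Clock passed, as did 1658 of 12351 IDs. Per1, Nr1d1 and Clock passed without the closed library of batch A, where 4420 IDs did, and without the open one, where 3986 did. The range of the batch means had a median of 0.488 log2 for the 6 genes and 0.330 for all IDs, and 92.5% of IDs had a smaller range than Clock, 86.8% than Nr1d1 and 84.7% than Per1, against 43.1% than Per2 and 44.4% than Dbp.

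Ratios between genes of one library are not changed by multiplying all its values by 1 factor, and are given here from the FPKM as deposited. The ratio of Nr1d1 to Arntl, which peak at about opposite times in a running clock, was 3.51, 3.69 and 3.69 in closed eyes and 4.32, 4.28 and 3.22 in open eyes of batches A, B and C. It varied 1.34-fold in all, and both transcripts were lower in batch C than in A. The ratio of Dbp to Arntl was 4.89 and 4.96 in batch A, 6.30 and 6.42 in batch B, and 6.53 and 4.91 in batch C, closed before open. Batches A and B were thus apart in this ratio, while batch C had its closed library near those of B and its open library near those of A. The ratio of Clock to Arntl was 0.300 and 0.349 in batch A, 0.448 and 0.509 in batch B, and 0.784 and 0.734 in batch C, a 2.61-fold range that separated all 3 batches and combines differences of opposite sign in the 2 genes. The ratio of Per1 to Arntl ranged 1.79-fold, from 0.661 in open eyes of batch C to 1.18 in open eyes of batch B. As deposited, Arntl lay on the same side as Nr1d1, Per1, Per2 and Dbp between batches A and C. After median scaling the C minus A differences were -0.21 for Arntl, -0.40 for Nr1d1, -0.37 for Per1, -0.034 for Dbp and 0.017 for Per2. Of these, only that of Nr1d1 passed the threshold. Collection times are not in the labels, and their part in these differences was not tested.

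**Figure D4:**
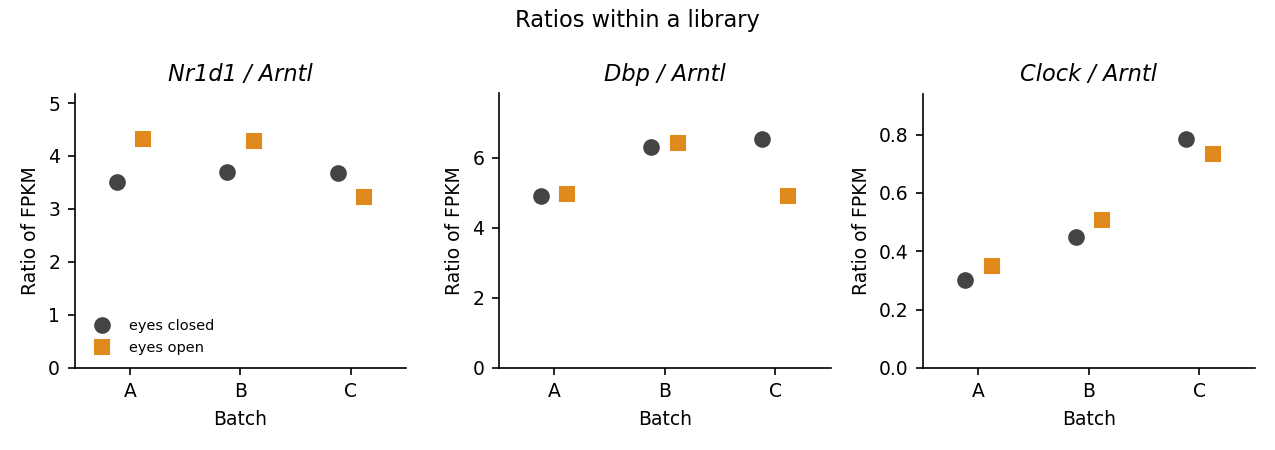
Ratio of FPKM of Nr1d1, Dbp and Clock to that of Arntl in the same library (y axis, linear, from 0) by batch (x axis), with circles for closed and squares for open eyes. The Clock ratio climbs from 0.300 in batch A to 0.784 in batch C, while the Nr1d1 ratio stays between 3.22 and 4.32.

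The profile of Dbp over the 6 libraries was shared by many IDs. On the log2(FPKM + 0.5) scale, ENSRNOG00000012742 (r = 0.997) and ENSRNOG00000049088 (r = 0.992) were most like it, and ENSRNOG00000045967 (r = -0.986) and ENSRNOG00000030163 (r = -0.984) most opposed. ENSRNOG00000012742 was, like Dbp, highest in open eyes of batch B (5.22 FPKM) and lowest in open eyes of batch C (3.82 FPKM), and ENSRNOG00000045967 had its highest level in open eyes of batch C (8.27 FPKM). Of 12345 other IDs, 675 had an r of at least 0.9 with Dbp and 66 an r of -0.9 or less. With 6 libraries in 3 batches, and library totals shared by all IDs, these values are a description.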

How the data were processed

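The authors deposited FPKM values per Ensembl ID and library, per the labels. The authors' own comparison, also deposited, holds a signal that by its size is a mean normalized count, a log2 fold (open over closed by its sign against FPKM, turned round here), and raw and adjusted p-values, per the file headers. The submitters' processing notes name STAR 2.3.14z, featureCounts 1.4.4, Cufflinks 2.1.1, DESeq2 1.4.1 and build rn5, without roles, annotation or strand use. FPKM keeps no depth, so no counting intervals are given.

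limma 3.58.1 (R 4.3.3, statmod 1.5.0; trend and robust moderation, two-sided, Benjamini-Hochberg) was fitted to log2(FPKM + 0.5) for 12351 IDs averaging 1 FPKM or more. Closed and open eyes were compared without batch, and batches by F test and pairwise contrasts with eye condition as covariate. The batch letter is a shared label, by which libraries of closed and open eyes were paired. Deviations from group means correlated at 0.361 to 0.525 within batches. Correlations across batches were not set beside these, and batch C was lower in many IDs, so the values do not test the pairing. Named were the 6 genes, and the 2 IDs most like and the 2 most opposed to Dbp. The genes and lists were chosen with earlier results of these data known. The fits were tested on simulated data; where variances were more uneven than limma assumes, the batch and blocked fits made more false calls than the nominal rate. Lists of other clock genes, stress and activity genes and cell type markers were not analysed here, since the reference table holds no Ensembl IDs, so the tissue label was not checked. Alternatives were other pseudocounts, filters, scalings, plain moderation, left-out libraries or batches, the batch block and no eye term.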

Additional observations from a re-analysis of the deposited data

How the results depend on the processing

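The batch calls depended on the scaling of the libraries. Genes called between batches numbered 5 as deposited, 2 with median and 2 with quantile scaling, and 3 when all IDs above 0 FPKM were tested, and 2 to 5 when 1 library was left out; no gene was called between B and A alone (0). IDs called numbered 6138 as deposited, 3739 with median and 3477 with quantile scaling, and 1658 to 4875 with 1 library left out. Batch C lay outside the other batches for 6 genes as deposited and for 3 with median and 3 with quantile scaling, both added after seeing the data, as was the block combined with a scaling. In IDs lower against higher in C than in A, 5002 and 636 became 1790 and 1481 with median scaling. Some small batch differences changed sign: Per2 C minus A was 0.017 with median scaling, Arntl C minus B 0.063 with median and 0.057 with quantile scaling, and Dbp C minus A 0.049 with quantile scaling. With 1 library left out, B minus A ran from -0.21 to 0.20 for Per1, -0.056 to 0.29 for Per2 and -0.014 to 0.16 for Dbp. For the contrasts with C, the calls lost with 1 library left out are given beside each gene, and the C minus A calls of Clock and Nr1d1 were kept each time. With plain moderation, the C minus B calls of Dbp and Nr1d1 were lost (limma adjusted p = 0.0711 and 0.0586). They were also lost when all IDs above 0 FPKM were tested (limma adjusted p = 0.0762 and 0.0645). The causes were not tested.

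Between closed and open eyes, 0 of the 6 genes were called in any setting, the replicate block included. IDs called numbered 0, 1 with the replicate block, 0 to 3 with 1 library left out, and 3, 5 and 3 without batch A, B or C. The block changed no call of the 6 genes. With 1 library left out, the closed minus open difference ran from -0.31 to 0.11 for Per1, -0.12 to 0.14 for Per2, -0.072 to 0.16 for Dbp, -0.37 to 0.016 for Nr1d1, -0.18 to 0.058 for Arntl and -0.36 to 0.037 for Clock. It was -0.010 for Per2 without batch A, 0.086 for Per1 without batch B, and -0.084 for Per2 and -0.033 for Dbp without batch C. None of these differences passed the test. The 3 libraries per group limit what could be seen.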
